A study of Homo sapiens with 11 samples.

Results

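The 10 genes described here are regulators and markers of the epithelial-mesenchymal transition (EMT). They were taken by symbol as a fixed list of CDH1, CDH2, VIM, ZEB1, ZEB2, SNAI1, SNAI2, TWIST1, FN1 and GRHL2. The list was drawn up with earlier results of these data known. All 10 were present among the 28252 genes of the RT4 expression files and among the 26237 promoters of the BEAS-2B H3K4me3 files. RT4 is a non-invasive human bladder cancer cell line, and BEAS-2B is an immortalized human bronchial epithelial line. RNA-Seq was available for RT4 and H3K4me3 ChIP-Seq, which maps a histone mark of active promoters, for BEAS-2B, so the 2 measurements come from different cells.

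Both lines carried the same 3 conditions. Untreated (UT) cells received no nickel. Ni-exposed (Ni-E) cells were kept in 100 µM NiCl2 for 6 weeks. Ni-washed-out (Ni-W) cells had the same exposure and were then returned to nickel-free medium, for 2 weeks in RT4. In BEAS-2B, the Ni-W population was expanded from a single colony and had been without nickel for more than 6 months, so washout, time in culture and clonal origin cannot be told apart there. RT4 had 2 libraries per condition, with 17075833 to 27736454 estimated reads each. BEAS-2B had 1 H3K4me3 library per condition, so its differences have no replicate check and carry counting error only.

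EMT is a program in which epithelial cells give up their lateral adhesions and gain a motile, matrix-producing state. The transcription factors SNAI1, SNAI2, ZEB1, ZEB2 and TWIST1 drive it, and several of them bind E-box sequences to repress CDH1. CDH1 encodes E-cadherin, the adhesion protein of epithelial junctions, and GRHL2 is a transcription factor that maintains the epithelial state and restrains ZEB1. CDH2 (N-cadherin), VIM (the intermediate filament vimentin) and FN1 (the matrix protein fibronectin) are the classical mesenchymal markers. Intermediate states, in which E-cadherin persists beside mesenchymal genes, are well known in carcinoma lines.

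RefSeq promoter sequences (GRCh38.p14, 250 bases before to 50 bases after a start) were at hand for 5 of the 10 genes, namely CDH2, FN1, VIM, ZEB1 and ZEB2. Promoters of CDH1, GRHL2, SNAI1, SNAI2 and TWIST1 were not used here. Each window was searched on both strands for the E-box CACCTG (reverse complement CAGGTG), bound by the SNAI and ZEB factors, for the cyclic AMP response element TGACGTCA, and for the CCAAT box (reverse complement ATTGG), motifs that do not overlap in these windows. CACCTG occurred in 20.6% of all 35116 RefSeq windows of this length, TGACGTCA in 1.85% and CCAAT in 34.6%. The 4 windows below were chosen because CDH2 and FN1 had the largest fitted rises in RT4 and because VIM and ZEB1, near silent in RT4, carried strong H3K4me3 in BEAS-2B. Matches are in capitals.
CDH2, chr18:28177081-28177380, minus strand: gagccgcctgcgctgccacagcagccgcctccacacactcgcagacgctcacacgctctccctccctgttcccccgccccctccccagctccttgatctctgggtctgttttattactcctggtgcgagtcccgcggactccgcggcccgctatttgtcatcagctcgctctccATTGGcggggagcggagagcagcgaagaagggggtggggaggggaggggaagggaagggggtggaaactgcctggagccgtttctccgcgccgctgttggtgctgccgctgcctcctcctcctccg
FN1, chr2:215436019-215436318, minus strand: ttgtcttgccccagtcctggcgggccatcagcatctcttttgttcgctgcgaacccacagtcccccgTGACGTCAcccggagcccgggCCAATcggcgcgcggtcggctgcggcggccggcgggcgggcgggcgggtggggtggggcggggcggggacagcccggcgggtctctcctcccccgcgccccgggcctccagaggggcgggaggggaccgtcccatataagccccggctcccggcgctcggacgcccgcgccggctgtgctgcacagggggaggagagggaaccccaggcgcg
VIM, chr10:17227991-17228290, plus strand: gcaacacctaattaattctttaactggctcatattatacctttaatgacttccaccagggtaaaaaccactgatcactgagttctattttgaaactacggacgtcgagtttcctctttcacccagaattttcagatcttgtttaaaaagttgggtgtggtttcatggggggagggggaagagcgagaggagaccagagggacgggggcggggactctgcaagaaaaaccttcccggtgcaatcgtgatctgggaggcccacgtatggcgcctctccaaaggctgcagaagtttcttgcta
ZEB1, chr10:31318966-31319265, plus strand: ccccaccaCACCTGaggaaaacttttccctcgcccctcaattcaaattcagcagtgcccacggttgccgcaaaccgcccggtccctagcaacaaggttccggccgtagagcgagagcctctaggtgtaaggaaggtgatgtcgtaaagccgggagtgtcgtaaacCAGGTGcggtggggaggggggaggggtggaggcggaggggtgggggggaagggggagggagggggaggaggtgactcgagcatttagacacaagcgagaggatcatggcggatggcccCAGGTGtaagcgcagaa
The FN1 window held TGACGTCA beginning 183 bases before the start and CCAAT beginning 162 bases before it. The CDH2 window held ATTGG beginning 76 bases before the start. CDH2 has 2 RefSeq starts, and the window not shown held CCAAT beginning 67 bases before its start. ZEB1 has 7 RefSeq starts, and the window shown was picked from them because it held CACCTG or CAGGTG 3 times, a number reached by 0.635% of all windows. Another ZEB1 window held the E-box once, and the other 5 held none, as did the windows of CDH2, FN1, VIM and ZEB2. A match describes the letters of the window and was not tested as a binding site.

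In RT4, the epithelial genes CDH1 and GRHL2 were high in every condition while a subset of the mesenchymal genes of the list stood higher in both nickel conditions. CDH1 and GRHL2 did not pass the test in any comparison. SNAI2 rose 2.19-fold in Ni-E cells, and FN1 and CDH2 were 3.15- to 3.54-fold higher in Ni-E and in Ni-W cells, with a call that depended on the pairing of the libraries and, for FN1, also on the tool. VIM, ZEB1, SNAI1, ZEB2 and TWIST1 were near the detection limit throughout. The level of a gene is given below as TPM, which is scaled by transcript length and can be compared between genes, and each change comes from edgeR's quasi-likelihood test over 14502 genes.

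CDH1 (chr16:68737292-68835537, GRCh38, GENCODE 44) had 292 and 175 TPM in the UT libraries, 252 and 172 TPM in Ni-E, and 331 and 159 TPM in Ni-W. The groups overlapped, and the first library of each condition was higher than the second. The log2 fold change was -0.14 (SE 0.31, 95% interval -0.91 to 0.63) for Ni-E vs UT and -0.02 (interval -0.79 to 0.75) for Ni-W vs UT. With the library number as a block, the Ni-E interval narrowed to -0.35 to 0.09. GRHL2 had 56.7 and 34.5 TPM in UT, 62.1 and 41.5 TPM in Ni-E, and 66.9 and 36.0 TPM in Ni-W, again with overlapping groups. Its log2 fold change was 0.19 (SE 0.27) for Ni-E vs UT and 0.10 (SE 0.27) for Ni-W vs UT, and neither passed the test.

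**Figure D1:**
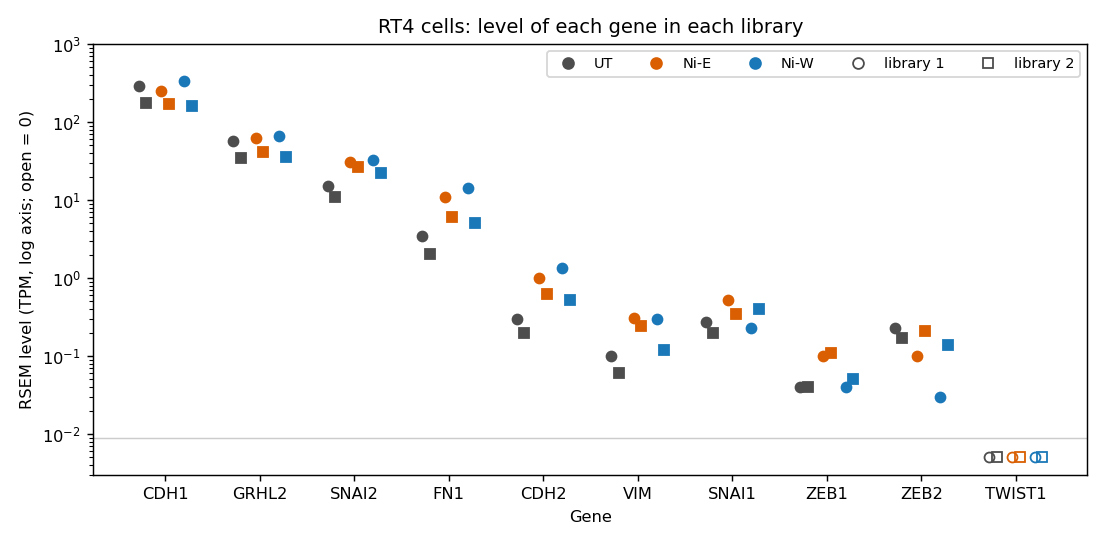
Level of each gene in each RT4 library in TPM on a log axis, with colours for the conditions, circles for library 1 and squares for library 2. CDH1 lies between 159 and 331 TPM in all 6 libraries, SNAI2 and FN1 are higher in every Ni-E and Ni-W library than in the UT libraries, and TWIST1 is at 0 in all 6 (open symbols).

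SNAI2 (Slug), a zinc finger repressor of CDH1 that is also expressed in basal epithelial cells, was the most abundant of the transition factors. Its level was 15.1 and 10.9 TPM in UT, 30.3 and 26.7 TPM in Ni-E, and 32.5 and 22.2 TPM in Ni-W. Every nickel library was above both UT libraries. For Ni-E vs UT the log2 fold change was 1.13 (SE 0.18, 95% interval 0.68 to 1.58), with an adjusted p of 0.046 (edgeR, Benjamini-Hochberg), and the ratio was 2.06 in the first pair of libraries and 2.34 in the second. For Ni-W vs UT the log2 fold change was 1.01 (SE 0.18) with an adjusted p of 0.10, which missed the threshold. With the library number as a block the adjusted p was 0.00018 for Ni-E and 0.0006 for Ni-W, and DESeq2 without a block gave 0.00057 and 0.0053, so both passed in these fits. SNAI2 stood 0.12 lower on the log2 scale in Ni-W than in Ni-E (interval -0.56 to 0.32), a difference that did not pass either fit.

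Across all genes, 1.45% were called higher and 0.71% lower in Ni-E vs UT without the block. With the block, these shares were 7.64% higher and 5% lower. Against this, 1 of the 6 EMT genes that passed the count filter was called without the block and 3 of the 6 with it, all of them higher. For Ni-W vs UT, 0.503% of all genes were called higher and 0.0965% lower without the block, and 5.79% and 2.78% with it. There, 0 of the 6 EMT genes were called without the block and 3 with it. No EMT gene was called between Ni-W and Ni-E, where edgeR called 0% of all genes without the block (700 genes had an unadjusted p under 0.05 and at least a 1.5-fold change, and DESeq2 called 139) and 4.52% in either direction with it.

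FN1 (chr2:215360440-215436073) had 279 and 267 estimated reads in UT, 892 and 849 in Ni-E, and 1012 and 686 in Ni-W. In TPM this was 3.43 and 2.03 in UT, 10.8 and 6.14 in Ni-E, and 14.4 and 5.02 in Ni-W. The nickel libraries did not overlap the UT libraries, and the first library of each condition was the higher. The log2 fold change was 1.65 (SE 0.46) for Ni-E vs UT and 1.73 (SE 0.46) for Ni-W vs UT, with edgeR adjusted p of 0.18 and 0.24. With the block the changes were 1.64 (SE 0.16) and 1.66 (SE 0.16), with adjusted p of 6.6e-05 and 0.0001. DESeq2 without a block gave adjusted p of 0.012 and 0.0096, both past the threshold.

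CDH2 (chr18:27932879-28177946) was much rarer, with 11 and 12 estimated reads in UT, 38 and 40 in Ni-E, and 44 and 33 in Ni-W. Its level did not exceed 1.35 TPM in any library, against at least 159 TPM for CDH1. All 4 nickel libraries were above both UT libraries. The log2 fold change was 1.73 (SE 0.49) for Ni-E vs UT and 1.82 (SE 0.49) for Ni-W vs UT, with edgeR adjusted p of 0.19 and 0.25, and with the block the adjusted p was 0.0095 and 0.012. FN1 and CDH2 differed little between Ni-W and Ni-E, by 0.08 (interval -1.01 to 1.16) and 0.09 (interval -1.01 to 1.19) on the log2 scale.

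**Figure D2:**
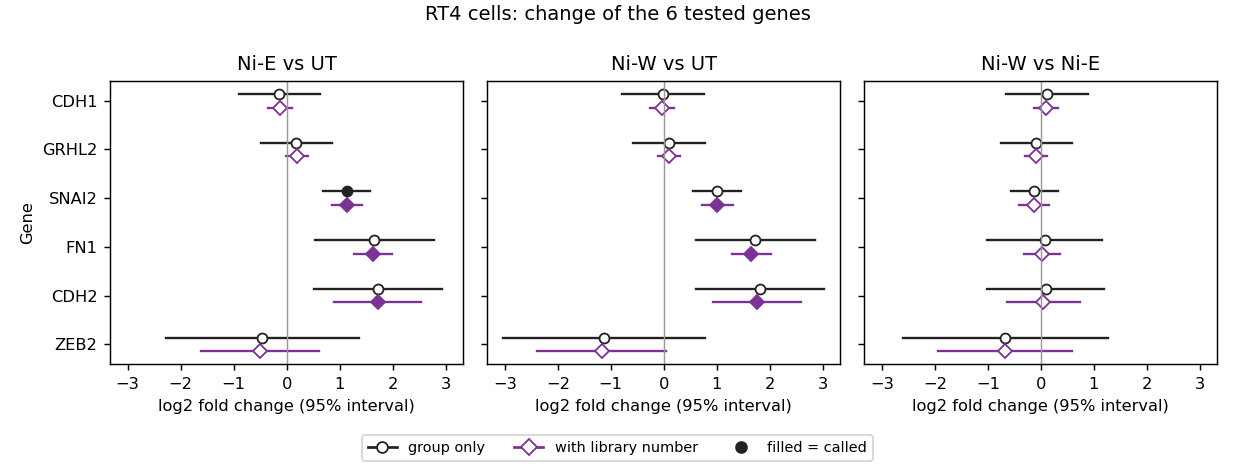
Log2 fold change with 95% interval of the 6 EMT genes that passed the count filter in RT4, from the fit by group only (circles) and with the library number as a block (diamonds); filled symbols were called. SNAI2, FN1 and CDH2 lie above 0 against UT in both nickel conditions, and all 6 genes lie near 0 or have wide intervals in Ni-W vs Ni-E.

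The ratio of 2 genes within a library does not depend on its depth. The CDH1 to FN1 ratio of TPM was 85.2 and 86.2 in UT, 23.4 and 28.02 in Ni-E, and 23.1 and 31.7 in Ni-W. The UT libraries were nearly equal although CDH1 itself differed between them, and all nickel libraries were lower. The CDH1 to CDH2 ratio was 974 and 875 in UT and lay between 245 and 306 in the nickel libraries. The CDH1 to SNAI2 ratio was 19.4 and 16.0 in UT and between 6.44 and 10.2 in the nickel libraries. These ratios were not tested, since they restate the members' values, and CDH1 stayed the more abundant transcript in every pair and library.

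**Figure D3:**
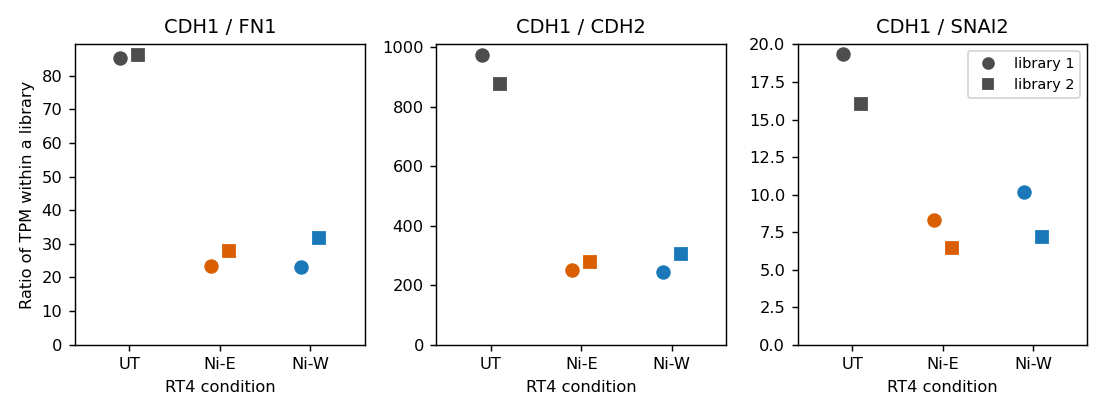
Ratio of CDH1 to FN1, CDH2 and SNAI2 in TPM within each RT4 library, by condition, with each axis starting at 0. In all 3 panels both UT libraries lie above the 4 nickel libraries; for CDH1 to FN1 they are at 85.2 and 86.2 against 23.1 to 31.7.

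The other EMT factors were barely detected. ZEB2, a zinc finger repressor related to ZEB1, had 15 and 23 estimated reads in UT, 6 and 24 in Ni-E, and 2 and 16 in Ni-W. It was the only one of them to pass the filter, and its log2 fold change was -0.46 (SE 0.74) for Ni-E vs UT and -1.12 (SE 0.77) for Ni-W vs UT, neither called. ZEB1 had 2 and 4 reads in UT, 6 and 11 in Ni-E, and 2 and 5 in Ni-W, and SNAI1 (Snail) had 4 and 5, 8 and 9, and 3 and 10. VIM (chr10:17228241-17237593) had 2 and 2 reads in UT, 6 and 8 in Ni-E, and 5 and 4 in Ni-W, at most 0.31 TPM. These 3 genes were left out by the filter on low counts. All 3 had more reads, not scaled for depth, in both Ni-E libraries than in either UT library. These counts were at most 11, and the share of all genes separated in this way was not determined. The edgeR fit with no filter gave log2 fold changes of 1.70 (VIM), 1.41 (ZEB1) and 0.87 (SNAI1) for Ni-E vs UT. The edgeR adjusted p were 0.70, 0.76 and 0.94, so no change was detectable at this depth. TWIST1, a basic helix-loop-helix factor, was at 0 in all 6 libraries, where 3 reads would correspond to 0.108 to 0.176 CPM, the count scaled to the library total.

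The 16 urothelial markers, carried by KRT7, KRT8, KRT18 and KRT19, summed to 13607 to 15017 TPM in UT, 14380 to 14747 TPM in Ni-E and 14175 to 17390 TPM in Ni-W. Among them, KRT20, a keratin of terminally differentiated umbrella cells, fell by 6.03 on the log2 scale in Ni-E and KRT13 fell by 2.69 (edgeR adjusted p 0.0085 and 0.017), as did UPK1A, a uroplakin, by 2.27 (adjusted p 0.038). In Ni-W, KRT20 and KRT13 fell by 2.97 and 2.52 (adjusted p 0.029 each). The log2 fold changes of UPK2, UPK1B, UPK3A and FOXA1 in Ni-E were -1.65, -0.81, -0.63 and -0.61, none of them called. UPK3B was at 0.42 and KRT5 at 1.18, also not called. In Ni-W, UPK1A was at -1.02, UPK2 at -0.36, UPK1B at -0.01 and FOXA1 at 0.04. UPK3B, UPK3A and KRT5 were at 0.34, 0.41 and 0.81 in Ni-W, and none of these genes was called there. The 10 stromal markers summed to 1.11 to 1.75 TPM in UT, 3.05 to 4.77 TPM in Ni-E and 2.37 to 5.21 TPM in Ni-W. The higher sums came from COL3A1, which had 0.84 and 0.26 TPM in UT, 4.13 and 2.18 TPM in Ni-E, and 4.55 and 1.48 TPM in Ni-W, and so moved with FN1 and CDH2. COL1A1 did not (log2 fold change -0.28 in Ni-E and -0.27 in Ni-W), and COL1A2, DCN, THY1 and TWIST2 were at 0 in all 6 libraries. The other 4 markers had at most 0.08 TPM. The part of other cells in the FN1 and CDH2 values was not tested. More cells with a gene and more RNA per cell cannot be told apart in these bulk samples.

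Other genes of the EMT program were read from lists that did not include the 10 genes. Over all genes, 1.45% were called higher and 0.71% lower in Ni-E vs UT without the block, and 7.64% and 5% with it. Of 17 tested genes of epithelial adhesion and polarity, 0 were called higher and 1 lower in Ni-E vs UT (0 and 2 with the block), with a median log2 fold change of -0.04 beside -0.01 over all genes tested. The gene called lower in both fits was CLDN3, a tight junction claudin, with 27 and 53 reads in UT, 4 and 2 in Ni-E, and 5 and 7 in Ni-W. The second with the block was OCLN, the tight junction protein occludin (log2 fold change -0.59, edgeR adjusted p 0.047). Of 12 genes of epithelial transcription and splicing, 0 were called in either direction without the block. With the block 2 were called higher and 2 lower, including KLF4 (log2 fold change 1.06) and GRHL1 (0.72) on one side and GRHL3 (-0.69) and ELF5 (-0.93) on the other, so members of this list moved both ways. CLDN3, OCLN and these 4 genes, outside the naming rule, were picked after their values were seen.

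Of 15 tested genes of mesenchymal matrix and cytoskeleton, 3 were called higher and 0 lower in Ni-E vs UT, beside 1.45% and 0.71% of all genes. With the block 6 were called higher and 1 lower, beside 7.64% and 5% of all genes. The median log2 fold change of the list was 0.57, beside -0.01 over all genes tested. ACTA2, the actin of contractile myofibroblasts, had 6.61 and 7.48 TPM in UT, 36.3 and 37.0 TPM in Ni-E, and 41.2 and 34.2 TPM in Ni-W. Its log2 fold change was 2.35 (SE 0.25, edgeR adjusted p 0.019) in Ni-E and 2.33 (SE 0.25, adjusted p 0.029) in Ni-W. It was the only gene of the list called in Ni-W vs UT without the block. COL6A1, a collagen VI chain, rose by 1.31 (SE 0.21, adjusted p 0.047), from 27.9 and 28.2 TPM to 72.6 and 67.9 TPM, and had 73.0 and 75.1 TPM in Ni-W. S100A4, a calcium-binding protein used as a fibroblast marker, was the gene called lower with the block. It had 253 and 303 TPM in UT, 68.0 and 85.5 TPM in Ni-E, and 56.8 and 83.7 TPM in Ni-W. Its log2 fold change was -1.89 in Ni-E and -2.01 in Ni-W without the block (edgeR adjusted p 0.090 and 0.12), and with it the adjusted p was 1.2e-05 and 1.3e-05. MMP2, a matrix metalloproteinase, was also lower in Ni-W with the block (log2 fold change -0.72, adjusted p 0.0027). In Ni-E vs UT, MMP2, FBN1, COL1A1 and TAGLN also had negative log2 fold changes, of -0.37, -0.43, -0.28 and -0.28, none of them called in either fit. S100A4, MMP2, FBN1, COL1A1 and TAGLN, outside the naming rule for this list, were named after their values were seen.

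Of 9 tested mesenchymal transcription factors, 1 was called higher and 0 lower in Ni-E vs UT, beside 1.45% and 0.71% of all genes. With the block 4 were called higher and 0 lower, beside 7.64% and 5% of all genes. The median log2 fold change of the list was 0.54, beside -0.01 over all genes tested. The one called in both fits was HMGA2, a chromatin architectural factor, which had 0 and 1 read in UT, 106 and 151 in Ni-E, and 6 and 9 in Ni-W (edgeR adjusted p 0.0089 for Ni-E vs UT). It was named after its values were seen, since its level was below the naming rule. HMGA2 thus had intermediate counts in Ni-W, with a log2 fold change of -4.01 against Ni-E in both fits, which was called with the block (adjusted p 0.00014) and not without it (0.15). Of 12 tested signals into the transition, 1 was called higher in Ni-E vs UT and 5 with the block, beside the same shares of all genes. That 1 gene was TGFB1, the growth factor TGF-beta 1, with 77.99 and 67.99 TPM in UT, 208 and 177 TPM in Ni-E, and 155 and 137 TPM in Ni-W. Its log2 fold change was 1.38 (SE 0.16, edgeR adjusted p 0.023) in Ni-E and 0.95 (SE 0.16, adjusted p 0.082, with the block 0.00018) in Ni-W. Of the 15 cofactors and turnover enzymes of SNAI and ZEB proteins, 0 were called in either direction in any comparison, with or without the block.

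In Ni-W vs UT, ACTA2 was the single gene called over the 6 lists without the block. Over all genes, 0.503% were called higher and 0.0965% lower there. With the block, 5.79% of all genes were called higher and 2.78% lower. Higher and lower then numbered 6 and 2 of 15 tested matrix genes, 5 and 0 of 12 signal genes and 2 and 0 of 9 mesenchymal factors. They numbered 2 and 1 of 12 epithelial factors and 0 and 1 of 17 adhesion genes. Without the block, the median log2 fold change was 0.37 for matrix genes, 0.33 for signal genes and 0.05 for mesenchymal factors. It was -0.05 for epithelial factors, 0.04 for adhesion genes and -0.04 for cofactors, beside 0.001 over all genes tested. In Ni-W vs Ni-E, 0 genes of the lists were called without the block, as were 0% of all genes. With it, 4.52% of all genes were called in either direction. From the lists, 1 of 9 mesenchymal factors and 1 of 15 matrix genes were lower, and of 12 signal genes 1 was higher and 1 lower.

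The miR-200 family represses ZEB1 and ZEB2, and 2 of its members derive from the transcript MIR200CHG. That transcript had 47 and 87 reads in UT, 20 and 67 in Ni-E, and 20 and 115 in Ni-W, with a log2 fold change of -0.73 (SE 0.69) for Ni-E vs UT, which was not called. The mature sequences of both from RefSeq (GRCh38.p14) are shown with the seed, bases 2 to 8, in capitals, since they differ within it.
miR-200c-3p, chr12:6963742-6963764, plus strand: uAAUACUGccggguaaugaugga
miR-141-3p, chr12:6964155-6964176, plus strand: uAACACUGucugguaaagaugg
Counted from the 5′ end, the seeds differ by U4C, with the miR-200c-3p base first. Mature miRNAs were not measured in these libraries.

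The profiles most like that of SNAI2 over the 6 RT4 libraries, among 11141 genes with a mean of at least 5 CPM, were PPP4R4 (Pearson r of log2 CPM 0.998), VWDE (0.998) and ERRFI1 (0.996), the last an inhibitor of EGF receptor signalling. These values describe 3 conditions with 2 libraries each.

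In BEAS-2B, the same genes had nearly the opposite order at the level of H3K4me3. All 8 promoters of the mesenchymal genes and transition factors carried more of the mark than those of CDH1 and GRHL2 already in untreated cells. SNAI1 was the lowest of the 8. No promoter of the 10 changed by 1.5-fold in any comparison after each library was divided by its median promoter, among those with at least 1 RPKM in either library. RPKM here counts reads in the 4 kb around a gene's start, and intervals are 95% Wilson intervals of the reads recovered from the RPKM steps. They cover counting error only.

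The CDH2 promoter had 14.6 RPKM in UT (13.9 to 15.3), 13.3 RPKM in Ni-E and 8.57 RPKM in Ni-W, above 98.9% of all promoters in UT. ZEB1 had 10.3, 9.54 and 7.11 RPKM, VIM had 8.95, 8.41 and 4.67 RPKM, and TWIST1 had 7.36, 6.43 and 6.08 RPKM in the same order. ZEB2 had 5.98, 5.98 and 3.66 RPKM, and FN1 had 4.55, 4.65 and 3.97 RPKM. The marked state thus included TWIST1, ZEB1 and VIM, which were at or near 0 as RNA in RT4. RNA of BEAS-2B was not used here. The paper cites earlier work in which the ZEB1 promoter lost the repressive mark H3K27me3 under nickel and the gene became persistently active. H3K4me3 at ZEB1 in UT is therefore not read as expression. SNAI2 had 3.68, 4.05 and 3.21 RPKM and SNAI1 had 2.04, 2.17 and 1.19 RPKM.

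CDH1 had 1.02 RPKM in UT (0.85 to 1.23), 0.65 RPKM in Ni-E (0.54 to 0.80) and 0.70 RPKM in Ni-W (0.57 to 0.87), below the library median in all 3. GRHL2 had 0.65, 0.37 and 0.48 RPKM. For comparison, 375 olfactory receptor promoters, which are silent outside the nose and were chosen as a background after the data were seen, had a median of 0.211, 0.227 and 0.292 RPKM and a 95th percentile of 0.388, 0.433 and 0.581 RPKM in UT, Ni-E and Ni-W. GRHL2 was within this range in both nickel libraries and above it in UT, and CDH1 was above it in all 3. Among the listed bronchial epithelial markers, KRT7, KRT8 and KRT18 had 7.15, 7.33 and 7.26 RPKM in UT. FOXA1 had 4.74, NKX2-1 2.76, EPCAM 2.21 and SOX2 0.978 RPKM. KRT19, TP63 and KRT5 had 0.432, 0.388 and 0.22 RPKM, so only these lay near the olfactory background in UT.

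**Figure D4:**
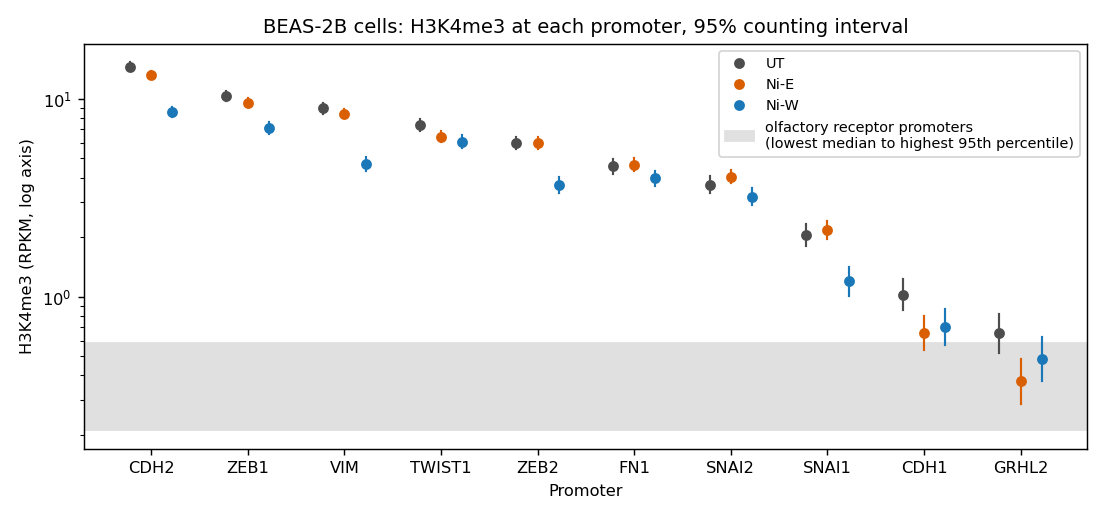
H3K4me3 of the 10 promoters in BEAS-2B in RPKM on a log axis, with 95% counting intervals, by condition; the grey band spans the olfactory receptor promoters from their lowest median (0.211 RPKM) to their highest 95th percentile (0.581 RPKM). CDH2 is at the top with 14.6 RPKM in UT, and GRHL2 reaches into the band.

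The Ni-W library was less enriched than the others, with 22.9% of its reads in promoters, against 37.6% in UT and 36.0% in Ni-E, and its olfactory background was the highest. Its median promoter was 1.12 RPKM, against 1.57 in UT and 1.39 in Ni-E. The median log2 ratio of promoters with at least 1 RPKM was -0.81 for Ni-W vs UT in RPKM as deposited, -0.32 after median scaling and -0.07 after quantile normalization. The part of this difference in the Ni-W values was not tested, and changes involving Ni-W are given beside these medians.

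For Ni-E vs UT, 0 of 9 EMT promoters with at least 1 RPKM passed 1.5-fold, where 0.847% of all such promoters were higher and 0.567% lower. The median log2 ratio of the 9 was 0.09, beside 0.11 for all. SNAI2 had the highest value among the 10, a log2 ratio of 0.31 (counting interval 0.13 to 0.49), and it stayed positive under each scaling, from 0.14 to 0.31. CDH1 was lower by 0.47 (interval -0.86 to -0.08), with values from -0.65 to -0.47 under the scalings and relative to neighbouring promoters within 5 Mb. GRHL2, below 1 RPKM and so not counted, was lower by 0.63 (interval -1.13 to -0.13), and in reads it went from 74 to 56. The signs of CDH2, VIM and ZEB1 flipped between scalings, all within 0.14 of 0.

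For Ni-W vs UT, 0 of 9 EMT promoters passed 1.5-fold, where 4.36% of all promoters were higher and 18.4% lower. The median log2 ratio of the 9 was -0.06, beside -0.32 for all. VIM had the lowest ratio, -0.45 (interval -0.60 to -0.30), and it was negative under every scaling, though -0.05 relative to its 33 neighbours. SNAI2 and FN1 both stood at 0.29 (intervals 0.09 to 0.49 and 0.11 to 0.47) after median scaling, 0.63 and 0.60 after quantile normalization, which is past 1.5-fold, and -0.20 in RPKM as deposited. TWIST1 stood at 0.21 after median scaling, 0.46 after quantile normalization and -0.28 as deposited, so the direction of all 3 depended on the scaling. Relative to promoters within 5 Mb, FN1 was higher by 0.73 over 54 neighbours, and TWIST1 was at -0.04 over 22.

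For Ni-W vs Ni-E, 0 of 8 EMT promoters passed 1.5-fold, where 4.04% of all promoters were higher and 30.5% lower. The median log2 ratio of the 8 was -0.22, beside -0.41 for all. SNAI1 and VIM were the lowest, at -0.55 (interval -0.84 to -0.27) and -0.54 (interval -0.68 to -0.40), and both were negative under every scaling. After quantile normalization they stood at -0.50 and -0.14, and relative to promoters within 5 Mb at -0.37 and -0.02, so VIM was close to the general shift. GRHL2, again below 1 RPKM, stood at 0.69 (interval 0.16 to 1.22) on 56 and 58 reads.

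**Figure D5:**
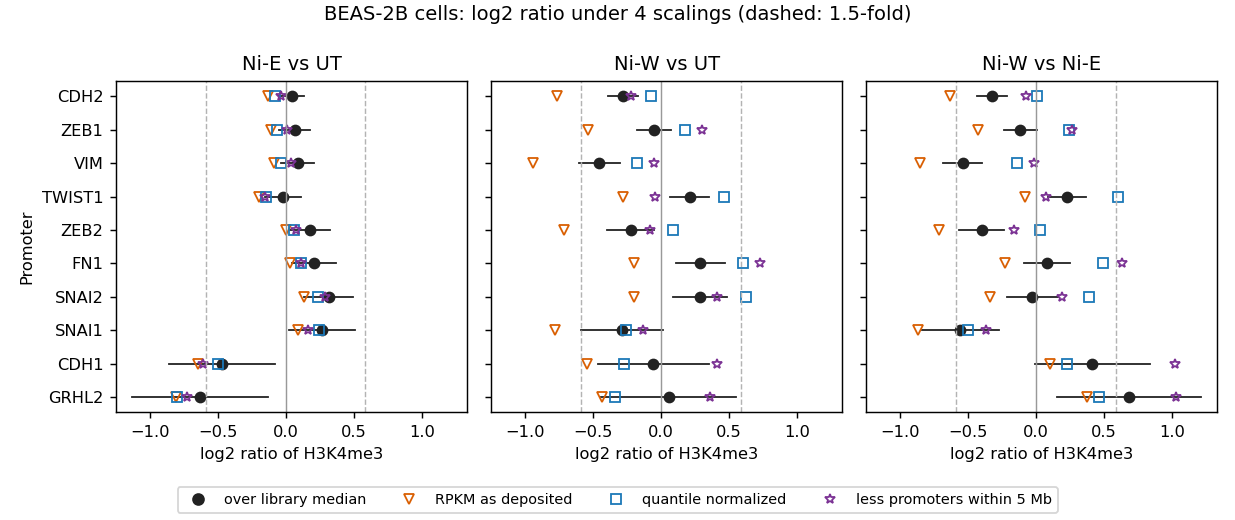
Log2 ratio of H3K4me3 at the 10 promoters in BEAS-2B for the 3 comparisons, after median scaling with its 95% counting interval (black), as deposited, after quantile normalization, and after subtraction of the median of promoters within 5 Mb; dashed lines mark 1.5-fold. Filled black points stay inside the dashed lines for all promoters with at least 1 RPKM, and the scalings spread widely in both Ni-W panels.

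Among the listed EMT genes, the promoter with the largest ratio was CDH11, the mesenchymal cadherin-11, at 0.308 RPKM (35 reads) in UT, 0.753 RPKM (113 reads) in Ni-E and 2.30 RPKM (275 reads) in Ni-W. Its log2 ratio for Ni-W vs UT was 3.39 (counting interval 2.88 to 3.89) and it was 2.90 in RPKM as deposited. PRRX1, a mesenchymal homeobox factor, was higher by 1.21 in log2 ratio (0.72 as deposited) in Ni-W vs UT, and KLF5, an epithelial zinc finger factor, by 1.35 (0.86 as deposited). ELF3, an epithelial ETS factor, had 4.55 RPKM in UT, 1.76 in Ni-E and 3.199 in Ni-W, a log2 ratio of -1.19 for Ni-E vs UT. CDH3, which encodes P-cadherin, and MAL2 were lower in Ni-E by 0.72 and 0.66 in log2 ratio, the only genes of the adhesion list past 1.5-fold there. TGFB1 and JAG1, whose products signal into the transition, were lower by 0.69 and 0.70 in Ni-W vs UT, and COL1A1, a fibrillar collagen, by 0.82. After quantile normalization these 3 values were -0.41, -0.49 and -0.52, short of 1.5-fold. The other promoters with the largest ratios for Ni-W vs UT were PRRX2 (1.09), CTNND1 (0.75), GRHL1 (-0.78), MMP14 (-0.62) and HDAC1 (-0.60). For Ni-E vs UT the one mesenchymal factor promoter past 1.5-fold was GSC (0.66), from 84 to 155 reads. For Ni-W vs Ni-E they were CDH11 (1.92), PRRX2 and KLF5 (1.40 each), ELF3 (1.17), PRRX1 (0.95) and MAL2 (0.65) among the higher. The lower were OVOL2 (-0.92), COL1A1 (-0.86), TGFB3 (-0.80), TGFB1 (-0.76), THY1 (-0.75), GRHL1 (-0.72), HMGA2 (-0.70), HDAC1 (-0.68), LSR (-0.65) and LOXL2 (-0.61). After quantile normalization OVOL2, TGFB3 and THY1 were still past 1.5-fold (-0.73, -0.66 and -0.73) and the other 7 were not, with values from -0.45 to -0.18. For Ni-W vs UT, GRHL1, MMP14 and HDAC1 were also short of it after quantile normalization (-0.50, -0.31 and -0.30). Among the rises, CTNND1 in Ni-W vs UT and MAL2 in Ni-W vs Ni-E were at 0.26 and 0.34 in RPKM as deposited, short of 1.5-fold. The other rises named for the Ni-W comparisons stayed past it as deposited. GSC in Ni-E vs UT was short of it both as deposited (0.48) and after quantile normalization (0.56).

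By list, for Ni-W vs UT, where 4.36% of all promoters were higher and 18.4% lower, 1 of 10 considered promoters of epithelial adhesion was higher and 0 lower, and 1 of 7 of epithelial transcription was higher and 1 lower. Of 8 promoters of mesenchymal transcription factors 3 were higher and 0 lower, though the median log2 ratio of the 8 was -0.19, beside -0.32 for all. The third, TWIST2, outside the naming rule, had 2.97 RPKM in UT and 3.31 RPKM in Ni-W before median scaling. Of 17 promoters of matrix and cytoskeleton 1 was higher and 3 lower. Of 15 cofactor promoters 0 were higher and 1 lower, and of 13 signal promoters 0 were higher and 3 lower. In Ni-E vs UT, 0.847% of all promoters were higher and 0.567% lower. There, 2 of 10 adhesion promoters and 1 of 6 epithelial transcription promoters were lower, and 1 of 8 mesenchymal factor promoters was higher. In the other 3 lists 0 promoters passed 1.5-fold. In Ni-W vs Ni-E, where 4.04% of all promoters were higher and 30.5% lower, higher and lower numbered 1 and 1 of 10 for adhesion, 2 and 2 of 7 for epithelial transcription, 2 and 1 of 9 for mesenchymal factors and 1 and 4 of 17 for matrix. They numbered 0 and 2 of 15 for cofactors and 0 and 4 of 13 for signals. The shares of the matrix and signal promoters that were lower in both Ni-W comparisons were near or below those of all promoters.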

How the data were processed

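RT4 RNA-Seq (6 libraries) and BEAS-2B H3K4me3 ChIP-Seq (3 libraries) were used. The authors deposited RSEM expected counts and TPM per gene for RT4; their methods describe 2 biological replicates, alignment with STAR to hg19 and RefSeq genes, while the submitters' processing notes name GRCh38, and which alignment fed RSEM is not given in the sources used here. For ChIP-Seq, the authors deposited RPKM over 4 kb promoters, aligned with BWA to hg38, with no input subtraction stated; the methods describe 2 biological replicates, but each condition has 1 file.

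Expected counts were rounded, filtered (filterByExpr), TMM-scaled and tested with edgeR 4.0.16 (R 4.3.3) over 14502 genes. A gene was called at 1.5-fold or more and an adjusted p (Benjamini-Hochberg) below 0.05. Library numbers were taken to pair the libraries, since deviations from group means correlated between conditions (r 0.79, 0.88 and 0.79 over 14502 genes); the fit with the number as a block is given beside the first. Labels mark the second library of each condition only as a duplicate, so p-values may partly measure technical spread. Counts were simulated with the spread of all 6 RT4 libraries, drawn independently without pairing, and with changes in Ni-E only. For Ni-E vs UT, the test without the block recovered 64 of 100 genes changed 4-fold and 7 of 100 changed 2-fold. It made 4 false calls among the unchanged genes of the 14502 simulated. DESeq2 1.42.0 and limma 3.58.1 were alternatives.

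RPKM values were whole multiples of 1 step per library, which gave depths of 28385725, 37493949 and 29933551 reads for UT, Ni-E and Ni-W. Levels were divided by the library median. A promoter with at least 1 RPKM in either library was counted at 1.5-fold or more, with no test. Members and lists were chosen with earlier results of these data known. From each list, named genes were the 3 largest rises and falls called in RT4 with at least 5 CPM and no overlap of groups, and up to 2 promoters per direction and comparison with the largest ratios in BEAS-2B. One gene that this rule names is not reported here. Neighbours within 5 Mb were placed with GENCODE 44.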

Additional observations from a re-analysis of the deposited data

How the results depend on the processing

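SNAI2 in Ni-E vs UT kept its size under every alternative (log2 fold change 1.04 to 1.23), but its edgeR adjusted p was 0.046, against 0.00057 with DESeq2, 0.00018 with the block, 0.048 with DESeq2 size factors and 0.040 with no filter. It was 0.054 with at least 10 counts in every library, 0.051 with only the 2 groups fitted, and 0.19 with limma on log2(TPM + 1). It lay between 0.050 and 0.38 without any 1 library, where no setting passed. FN1 kept its direction without any 1 library, at 1.28 to 1.95 in Ni-E vs UT and 1.06 to 2.19 in Ni-W vs UT, as did CDH2 at 1.45 to 1.98 and 1.27 to 2.25. FN1 without the first Ni-W library was at 1.06. An arm left with 1 library was assumed to vary like the other groups.

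The number of genes called was 314 in Ni-E vs UT, 87 in Ni-W vs UT and 0 in Ni-W vs Ni-E. With the library numbers as a block (paired libraries) it was 1833, 1243 and 655, and with DESeq2 730, 442 and 139. With at least 10 counts in every library it was 209 and 54 in the first 2 comparisons, with no filter 193 and 14 in the last 2, with only 2 groups fitted 0 in Ni-W vs UT, and with limma 170 in Ni-E vs UT. Without any 1 library it was 0 to 320, 0 to 38 and 0. The block changed the call of FN1 and CDH2 in both comparisons with UT and of SNAI2 in Ni-W vs UT, and of no other EMT gene.

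Signs changed only for values that were not called. CDH1 in Ni-W vs UT was 0.021 with limma. Without any 1 library, CDH1 ranged from -0.36 to 0.13 in Ni-E vs UT, from -0.40 to 0.29 in Ni-W vs UT and from -0.26 to 0.43 in Ni-W vs Ni-E. GRHL2 ranged from -0.045 to 0.43, -0.17 to 0.35 and -0.34 to 0.15 in the same order. ZEB2 ranged from -1.36 to 0.028 in Ni-E vs UT and -2.39 to 0.23 in Ni-W vs Ni-E, where CDH2 ranged from -0.45 to 0.52 and FN1 from -0.58 to 0.54.

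In BEAS-2B, 197 promoters passed 1.5-fold in Ni-E vs UT, 3201 in Ni-W vs UT and 4826 in Ni-W vs Ni-E. In Ni-E vs UT the number was 50 with at least 3 RPKM. Without median scaling it was 10268 and 9277 in the 2 Ni-W comparisons (261 higher and 10007 lower vs UT; 316 and 8961 vs Ni-E), and with quantile normalization 1881 and 1933 (1138 higher and 743 lower vs UT; 1120 and 813 vs Ni-E). In Ni-E vs UT, the 118 higher and 79 lower became 55 and 212 without scaling. The cause was not tested.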
